A study of Mus musculus with 12 samples.

Results

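Acute-phase genes encode plasma and secreted proteins whose levels change soon after injury or infection, and fibrinogen is the clotting protein among them. A group of 10 such genes was followed in the kidneys of mice with polycystic kidney disease: Lcn2, Serpina3n, Socs3, Hp, Cp, Saa1, Saa3 and the fibrinogen chain genes Fga, Fgb and Fgg. They were taken by symbol from the deposited table, using the row with the most reads for a symbol, and are 10 of its 35275 genes. Poly(A) RNA had been sequenced from whole kidneys of 12 mice on the C57BL/6J strain at 6 months of age, with 4 mice (2 females and 2 males) in each of 3 groups, and mice are named here as in the columns of the table. WT mice carried neither mutation. RC/RC mice were homozygous for the hypomorphic RC allele of Pkd1, the polycystin-1 gene, and develop slowly progressive cystic disease. RC/RC:Casp1KO mice carried the same Pkd1 alleles and, in all of their cells, a deletion in both copies of Casp1 that removes the active-site cysteine codon, so that this group and RC/RC share the Pkd1 defect and differ in Casp1. Caspase-1 is the protease of the inflammasome and matures the cytokines IL-1β and IL-18. The comparisons ask which of these genes differ between cystic and normal kidneys and whether they differ when Casp1 is disrupted.

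In the liver, IL-6 and its relatives act through STAT3, and IL-1 acts through NF-kB and C/EBP factors, to raise the output of acute-phase proteins. Injured kidney tubule cells also make several of them, and Lcn2 is in wide use as a marker of tubular injury. SOCS3 is no plasma protein: STAT3 switches on its gene, and the protein then blocks further signalling by the IL-6 receptor complex. Albumin, transthyretin and retinol-binding protein are the classic negative acute-phase proteins, whose output falls in the same setting.

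Each library held between 18019819 and 24869454 reads assigned to genes. Levels are given as CPM, the reads of a gene scaled to the size of the library and corrected with TMM factors, and 3 reads corresponded to between 0.115 and 0.166 CPM. The word "tested" means that a gene passed edgeR's filter on low counts. Casp1 had 43, 27, 26 and 30 reads in the WT mice, 87, 73, 79 and 61 in the RC/RC mice and 12, 10, 23 and 14 in the RC/RC:Casp1KO mice. The RC/RC:Casp1KO mice lay below every other mouse. Casp1 was higher in RC/RC than in WT by 1.21 ± 0.25 (SE) on the log2 scale (adjusted p = 0.0142 over all genes tested, by the quasi-likelihood test of edgeR with 4 mice against 4), and lower in RC/RC:Casp1KO than in RC/RC by 2.35 ± 0.32 (adjusted p = 0.00514, same edgeR test). The defining markers of kidney were abundant in the 12 libraries, led by Kap for proximal tubule, Umod for distal nephron and Podxl for podocytes.

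Of the 10 genes, 8 were tested, and Saa1 and Saa3 were too low. In RC/RC against WT, 4 of the 8 were higher at an adjusted p under 0.05 and none was lower, where 9.76% of the 15243 genes tested were called higher. These were Serpina3n, Lcn2, Socs3 and Fgg, and they were also the members whose 4 RC/RC mice all lay above the 4 WT mice, which held for 12.7% of all genes tested. The fitted log2 fold change was above 0 for all 8 (47.8% of all genes), with a median log2 fold change of 2.41 beside -0.02 for all genes. Serpina3n (4, 1, 15 and 5 WT reads) and Hp (7, 14, 38 and 2) were too low in WT to pass the filter there alone. Both passed through the RC/RC mice, so the filter itself favoured a value above 0 for them. Socs3 alone was called lower in RC/RC:Casp1KO than in RC/RC, where 4.41% of the 15428 genes tested were. All 8 fitted log2 fold changes there were below 0 (52.5% of all genes), with a median of -1.64. Serpina3n alone was called higher in RC/RC:Casp1KO than in WT, where 1.13% of the 15346 genes tested were, and 5 of the 8 fitted changes were above 0 (51.5% of all genes), with a median of 0.66. Serpina3n and Hp passed the filter in this comparison through the RC/RC:Casp1KO mice. Of all calls, 75.4%, 62.1% and 55.9% were higher in the 3 comparisons, in that order, and 86.1%, 82.0% and 79.8% with library size alone in place of TMM factors. The last 2 comparisons each share a group with the first, so their values are set side by side and are not independent.

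**Figure D1:**
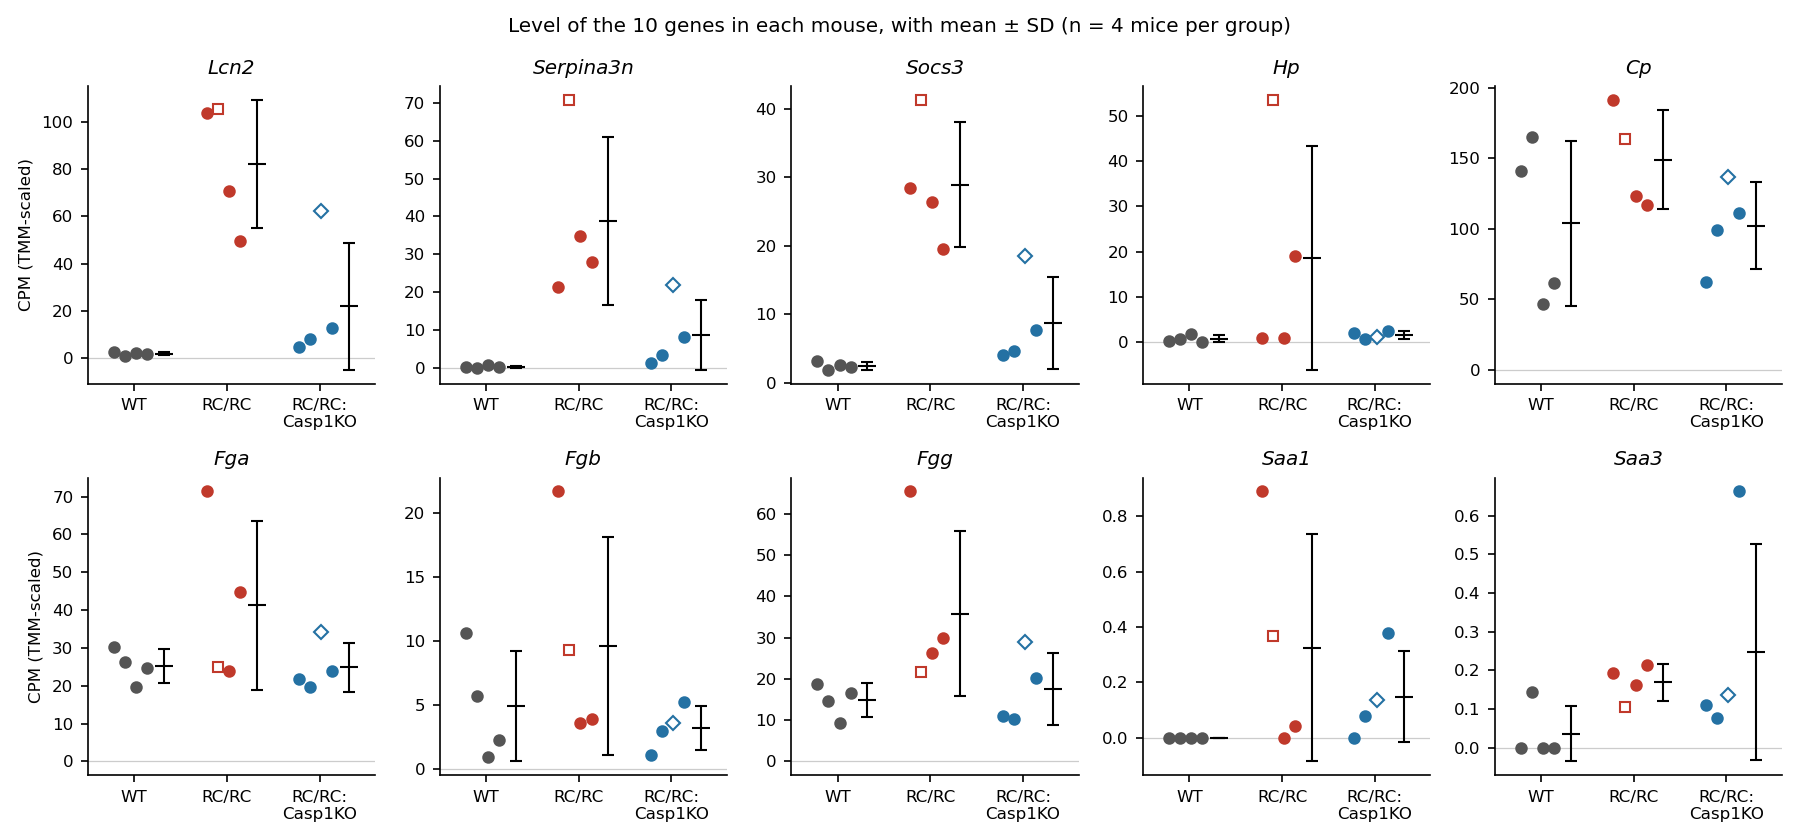
CPM (TMM-scaled) of each of the 10 genes in each mouse, with 1 point per mouse and the mean ± SD (n = 4) as a black bar to the right of each group. The open square is RC/RC mouse RC139 and the open diamond RC/RC:Casp1KO mouse Del3_70. Lcn2, Serpina3n and Socs3 are high in all 4 RC/RC mice and in RC/RC:Casp1KO mouse Del3_70, Hp is high in 2 RC/RC mice, and Saa1 and Saa3 stay under 1 CPM.

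Lcn2, on chromosome 2 (mm10, 32384633 to 32387797, minus strand), encodes lipocalin-2, a protein that binds bacterial iron carriers. Its level was 2.39, 0.862, 2.25 and 1.55 CPM in WT mice B6_2, B6_3, B6_4 and B6_6. It was 103.8, 105.6, 70.7 and 49.6 CPM in RC/RC mice RC105, RC139, RC140 and RC143. It was 4.65, 8.16, 62.1 and 12.7 CPM in RC/RC:Casp1KO mice Del3_42, Del3_60, Del3_70 and Del3_105. Every RC/RC mouse was above every WT mouse, and every RC/RC:Casp1KO mouse was too, but RC/RC:Casp1KO mouse Del3_70 lay inside the RC/RC range while its 3 group mates lay well under it. RC/RC exceeded WT by 5.54 ± 0.37 (SE) on the log2 scale, a 46.4-fold difference (adjusted p = 6.52e-05, edgeR quasi-likelihood test). Per kilobase of gene length, Lcn2 rose from the fifth place among the 10 genes in WT (1.28 ± 0.51 CPM per kb, SD, n = 4) to the first in RC/RC (59.97 ± 19.74 CPM per kb).

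Serpina3n, on chromosome 12 (104406729 to 104414329, plus strand), encodes a secreted serine protease inhibitor of the α1-antichymotrypsin family. WT mice B6_2, B6_3, B6_4 and B6_6 had 0.191, 0.0479, 0.749 and 0.234 CPM, from 4, 1, 15 and 5 reads. RC/RC mice RC105, RC139, RC140 and RC143 had 21.4, 70.8, 34.9 and 28.1 CPM. RC/RC:Casp1KO mice Del3_42, Del3_60, Del3_70 and Del3_105 had 1.44, 3.43, 21.9 and 8.21 CPM. The WT mice were near the detection floor, the RC/RC mice were all above them, and again RC/RC:Casp1KO mouse Del3_70 reached the low end of the RC/RC range. The difference of RC/RC from WT was 6.97 ± 0.62 on the log2 scale, or 126-fold (adjusted p = 0.000296, edgeR), at the 99.9th percentile of all fitted changes. Without WT mouse B6_4, which held 15 of the 25 reads of its group, the fitted difference was 7.85. The Serpina3 family lies in a cluster of near copies: Serpina3g, for one, shares 86.3% of 684 aligned bases and had 50, 27, 55 and 50 reads in the WT mice against 257, 458, 251 and 293 in the RC/RC mice. How reads were split between such copies is not given in the sources used here. With the family summed, the difference of RC/RC from WT was 4.22 (adjusted p = 0.000471, edgeR).

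Socs3, on chromosome 11 (117966079 to 117970047, minus strand), is the feedback inhibitor. Its level was 3.11, 1.87, 2.55 and 2.30 CPM in WT mice B6_2, B6_3, B6_4 and B6_6. It was 28.5, 41.4, 26.4 and 19.5 CPM in RC/RC mice RC105, RC139, RC140 and RC143. It was 4.04, 4.62, 18.5 and 7.68 CPM in RC/RC:Casp1KO mice Del3_42, Del3_60, Del3_70 and Del3_105. The 3 groups did not overlap: every RC/RC:Casp1KO mouse lay above the WT mice and below the RC/RC mice, with mouse Del3_70 just under the lowest RC/RC mouse. RC/RC exceeded WT by 3.55 ± 0.26 on the log2 scale, or 11.7-fold (adjusted p = 0.000132, edgeR). Lcn2, Serpina3n and Socs3 kept this call whichever single mouse was left out, with an adjusted p of at most 0.00199 (edgeR).

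The bases before the starts of these genes are shown because the 3 genes were high in the same mice. The 250 bases before the RefSeq start (GRCm38.p6, the build called mm10) were searched on both strands for the letters TTCNNNGAA (a STAT motif), TTNNGNAAT (C/EBP) and, for NF-kB, GGG and TTTCC with any 2 bases between them, and none of the matches in the members overlapped another. Of 32851 such windows of the same length, 7.02% held the STAT letters, 10.2% the C/EBP letters and 1.41% the NF-kB letters. RefSeq windows were found for 9 of the 10 genes, with 2 windows for Cp. Among the 9, 3 held the STAT letters (Fga, Fgb and Socs3), 2 the C/EBP letters (Serpina3n and Saa1) and 1 the NF-kB letters (Serpina3n). The Socs3 match, TTCTTAGAA, lies in a window inside the longer gene spans of the deposited table and of RefSeq. The Saa1 match, at bases 183 to 175 before the start, lies inside the RefSeq gene span. So does a further C/EBP match of Serpina3n, ATTTCCTAA, at bases 57 to 49. Bases that lie inside the gene span of the table or of RefSeq are left out of the stretches printed, and capitals mark the matches.

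Lcn2, chr2:32387798-32387989, minus strand, with no match to the 3 motifs:
Lcn2: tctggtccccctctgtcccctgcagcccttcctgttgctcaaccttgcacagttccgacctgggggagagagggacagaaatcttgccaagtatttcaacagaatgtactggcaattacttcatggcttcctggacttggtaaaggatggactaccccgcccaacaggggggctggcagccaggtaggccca
Serpina3n, chr12:104406458-104406645, plus strand, with a C/EBP match (ATTTCATAA, read on the opposite strand) and the NF-kB match (GGGCTTTTCC):
Serpina3n: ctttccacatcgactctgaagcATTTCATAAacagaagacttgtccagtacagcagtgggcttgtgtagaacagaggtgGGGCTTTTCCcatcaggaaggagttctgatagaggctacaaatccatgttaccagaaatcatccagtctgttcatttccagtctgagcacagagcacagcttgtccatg

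A match is a match of letters only; factor binding was not measured here.

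Hp and Cp are the metal and heme carriers of the group. Hp, haptoglobin, on chromosome 8 (109575130 to 109579172, minus strand), binds free hemoglobin. WT mice B6_2, B6_3, B6_4 and B6_6 had 0.335, 0.670, 1.90 and 0.0937 CPM. RC/RC mice RC105, RC139, RC140 and RC143 had 1.01, 53.6, 1.03 and 18.9 CPM. RC/RC:Casp1KO mice Del3_42, Del3_60, Del3_70 and Del3_105 had 2.11, 0.616, 1.23 and 2.37 CPM. Hp was high in RC/RC mice RC139 and RC143 alone, and the other 2 RC/RC mice lay within the WT range. The fitted difference of RC/RC from WT was 4.64 ± 1.36 on the log2 scale (adjusted p = 0.0528, edgeR), a large value that did not pass the test. It passed with DESeq2 (adjusted p = 0.00695), and with edgeR on all genes with at least 1 count (adjusted p = 0.0352), in 1 fit of all 12 mice (adjusted p = 0.0237), and without RC105 (5.01, adjusted p = 0.0321) or RC140 (5.04, adjusted p = 0.0381). It did not without RC139 (3.22, adjusted p = 0.152, edgeR), and without B6_4 the value was 5.63. Without RC/RC mice RC139 and RC143 the fitted difference was 0.43 (adjusted p = 0.830, edgeR).

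The same 2 mice had the most reads from adipocyte markers. The summed CPM of 10 adipocyte marker genes was 74.9, 2030, 98.6 and 247 in RC/RC mice RC105, RC139, RC140 and RC143. It was between 45.0 and 83.9 CPM in the WT mice and between 43.7 and 136.5 CPM in the RC/RC:Casp1KO mice. Fabp4, the most abundant of the 10 markers, reached 559.8 CPM in RC/RC mouse RC139 and 86.1 CPM in RC/RC mouse RC143, a level that RC/RC mouse RC140 exceeded with 96.1 CPM. Adipoq, the adipocyte hormone adiponectin, was chosen as an example after its values were seen, and had 99.2 CPM in RC/RC mouse RC139 and 11.6 CPM in RC/RC mouse RC143, against at most 5.17 CPM in any other mouse. Fat cells are a known source of haptoglobin, and their part in the Hp level was not tested. Of the 10 markers, 3 were tested in RC/RC against WT and none was called with edgeR, although all 3 had an unadjusted p under 0.05 and DESeq2 called 1. The median of the 3 fitted log2 fold changes was 2.29. With RC/RC mice RC139 and RC143 left out, a choice made after seeing the data, Lcn2, Serpina3n, Socs3 and Fgg were still called higher, at log2 fold changes of 5.61, 6.50, 3.47 and 1.61 (adjusted p of 0.000823, 0.00286, 0.000739 and 0.0464, edgeR).

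Cp, ceruloplasmin, on chromosome 3 (19957054 to 20009145, plus strand), is the copper-carrying ferroxidase of plasma. Its level was 141.3, 165.4, 47.1 and 61.3 CPM in WT mice B6_2, B6_3, B6_4 and B6_6, and 191.6, 163.9, 123.6 and 117.2 CPM in RC/RC mice RC105, RC139, RC140 and RC143. RC/RC:Casp1KO mice Del3_42, Del3_60, Del3_70 and Del3_105 had 62.6, 99.0, 136.7 and 110.9 CPM. The WT mice spanned most of the range of the other groups, and all groups overlapped. The fitted difference of RC/RC from WT was 0.52 ± 0.37 on the log2 scale (adjusted p = 0.380, edgeR). Cp was nevertheless the gene of the 10 with the highest mean per length in WT (22.7 ± 12.8 CPM per kb, SD, n = 4) and in RC/RC:Casp1KO (22.4 ± 6.7 CPM per kb), and the next after Lcn2 in RC/RC (32.7 ± 7.7 CPM per kb). These neighbours in the order overlapped: Lcn2 ranged from 36.1 to 76.8 and Cp from 25.7 to 41.98 CPM per kb in RC/RC, and in RC/RC:Casp1KO Lcn2 ranged from 3.39 to 45.2 and Cp from 13.7 to 29.96 CPM per kb.

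Saa1 and Saa3 encode serum amyloid A proteins, which rise steeply in liver during the acute phase and bind to lipoproteins. Saa1 had 0 reads in all 4 WT mice, and 23, 7, 0 and 1 reads in RC/RC mice RC105, RC139, RC140 and RC143. It had 0, 2, 3 and 8 reads in RC/RC:Casp1KO mice Del3_42, Del3_60, Del3_70 and Del3_105. Saa3 had 0, 3, 0 and 0 reads in the WT mice, 5, 2, 3 and 5 in the RC/RC mice, and 2, 2, 3 and 14 in the RC/RC:Casp1KO mice. A library with 0 reads allows a level of up to 0.166 CPM at most, so a small difference between groups was not detectable at this depth. With DESeq2, which drops no gene beforehand, Saa1 was called in RC/RC against WT (adjusted p = 0.0357), and with edgeR on all genes with at least 1 count it was not (adjusted p = 0.0895). Neither gene exceeded 0.892 CPM in any mouse. Saa2, which shares 94.3% of 652 aligned bases with Saa1, had at most 3 reads in a mouse, and Saa1 and Saa3 share 82.2% of 286 bases.

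Fibrinogen is a hexamer of 2 Aα, 2 Bβ and 2 γ chains, encoded by Fga, Fgb and Fgg side by side on chromosome 3, and its cleavage by thrombin forms the fibrin clot. Fgg (83007859 to 83015053, plus strand) had 18.9, 14.7, 9.44 and 16.6 CPM in WT mice B6_2, B6_3, B6_4 and B6_6. It had 65.5, 21.6, 26.4 and 29.9 CPM in RC/RC mice RC105, RC139, RC140 and RC143, and 11.1, 10.4, 28.9 and 20.1 CPM in RC/RC:Casp1KO mice Del3_42, Del3_60, Del3_70 and Del3_105. RC/RC mouse RC105 was far above the others, all RC/RC mice were above all WT mice, and RC/RC:Casp1KO mouse Del3_70 lay among the RC/RC mice. The difference of RC/RC from WT was 1.26 ± 0.35 on the log2 scale, or 2.39-fold (adjusted p = 0.0433, edgeR). This call was lost when any of the 4 WT mice or RC/RC mouse RC105 or RC140 was left out, and without RC/RC mouse RC105 the difference was 0.78 (adjusted p = 0.0611, edgeR).

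Fga (83026153 to 83033615, plus strand) had 30.3, 26.3, 19.6 and 24.7 CPM in WT mice B6_2, B6_3, B6_4 and B6_6. It had 71.5, 25.0, 23.8 and 44.7 CPM in RC/RC mice RC105, RC139, RC140 and RC143, and 21.7, 19.6, 34.3 and 23.8 CPM in RC/RC:Casp1KO mice Del3_42, Del3_60, Del3_70 and Del3_105. RC/RC mice RC105 and RC143 were above every WT mouse and the other 2 were not. Fgb (83042247 to 83049803, minus strand) had 10.6, 5.70, 0.949 and 2.30 CPM in the WT mice, 21.7, 9.26, 3.56 and 3.87 CPM in the RC/RC mice, and 1.11, 2.96, 3.59 and 5.27 CPM in the RC/RC:Casp1KO mice, in the same order. It ranged widely among the WT mice, and all groups overlapped. Fga and Fgb did not pass the test in RC/RC against WT, with log2 fold changes of 0.70 ± 0.33 (adjusted p = 0.188, edgeR) and 0.97 ± 0.75 (adjusted p = 0.411, edgeR). Without RC/RC mouse RC105 the values were 0.29 and 0.17. With 1 mouse left out Fgb ranged up to 1.68, at an adjusted p of at least 0.183 (edgeR).

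The bases before the 3 starts are shown because the chain genes are neighbours and their protein products are needed in equal amounts, while their transcripts were not. Fga, with the STAT letters TTCCTGGAA at bases 234 to 226 before the start, and Fgb, with TTCGAGGAA at bases 162 to 154, differ here from Fgg, which has no match to the 3 motifs. The windows are chr3:83025903-83026152 (plus strand), chr3:83049864-83050113 (minus strand) and chr3:83007474-83007723 (plus strand) of GRCm38.p6.
Fga: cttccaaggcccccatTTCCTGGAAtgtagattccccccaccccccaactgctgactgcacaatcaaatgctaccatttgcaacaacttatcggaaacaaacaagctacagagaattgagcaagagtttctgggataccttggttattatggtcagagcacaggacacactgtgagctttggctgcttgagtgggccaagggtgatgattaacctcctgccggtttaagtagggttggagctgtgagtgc
Fgb: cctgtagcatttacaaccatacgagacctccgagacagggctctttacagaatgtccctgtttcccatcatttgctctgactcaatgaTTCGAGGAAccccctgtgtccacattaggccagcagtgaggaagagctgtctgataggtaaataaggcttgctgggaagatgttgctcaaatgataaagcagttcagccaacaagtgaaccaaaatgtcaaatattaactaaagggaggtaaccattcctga
Fgg: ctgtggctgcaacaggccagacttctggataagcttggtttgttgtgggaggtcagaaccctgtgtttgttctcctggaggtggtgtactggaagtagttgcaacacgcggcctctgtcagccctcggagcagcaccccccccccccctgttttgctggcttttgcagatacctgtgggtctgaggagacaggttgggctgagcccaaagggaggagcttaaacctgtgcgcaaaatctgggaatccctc

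Per kilobase of gene length, the 3 chains summed to 27.5, 20.7, 12.5 and 19.4 CPM per kb in WT mice B6_2, B6_3, B6_4 and B6_6. The sum was 76.4, 26.9, 26.1 and 34.7 CPM per kb in RC/RC mice RC105, RC139, RC140 and RC143, and 14.2, 14.3, 30.9 and 23.1 CPM per kb in RC/RC:Casp1KO mice Del3_42, Del3_60, Del3_70 and Del3_105. RC/RC mouse RC105 stood apart from all others, and the lowest RC/RC mice lay just under the highest WT mouse. Over the 12 mice, Fgg took 52.5 ± 6.1% (SD, n = 12) of this sum, Fga 35.5 ± 6.8% and Fgb 11.97 ± 6.47%. The share of Fgb was the smallest in every mouse, from 4.63% in WT mouse B6_4 to 23.5% in WT mouse B6_2. With the longest coding sequences as the lengths, the shares were 48.8%, 40.2% and 10.96%, in the same order of chains. The mean share of Fgg was 48.1 ± 4.9% in WT, 56.4 ± 5.7% in RC/RC and 52.9 ± 5.9% in RC/RC:Casp1KO (SD, n = 4 each), and the ranges of the 3 groups overlapped.

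**Figure D2:**
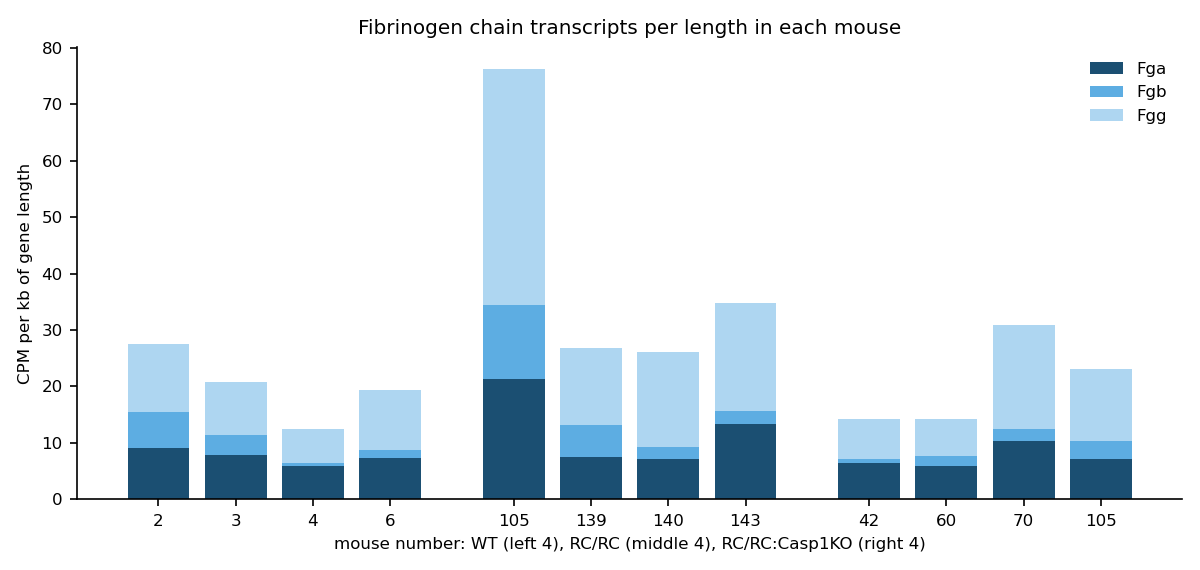
Stacked CPM per kilobase of gene length of Fga, Fgb and Fgg in each of the 12 mice, by group and by the number in the name of the mouse. RC/RC mouse RC105 reaches 76.4 CPM per kb in sum, and Fgb is the smallest block in every mouse.

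Disruption of Casp1 went with lower fitted values of all 8 genes tested. Socs3 fell by 1.73 ± 0.46 on the log2 scale from RC/RC to RC/RC:Casp1KO, or 3.32-fold (adjusted p = 0.0422, edgeR), with every RC/RC:Casp1KO mouse below every RC/RC mouse, which held for 9.18% of all genes tested. This call was lost with library size alone (adjusted p = 0.0697, edgeR) and in 5 of the 8 fits that left out 1 mouse, those without RC139, RC140, Del3_42, Del3_60 or Del3_105, at log2 fold changes from -1.77 to -1.48 and adjusted p from 0.0799 to 0.109 (edgeR). Lcn2 (-1.91 ± 0.71, adjusted p = 0.104, edgeR) and Serpina3n (-2.15 ± 0.71, adjusted p = 0.0777, edgeR) did not pass the test, nor did Hp (-3.59 ± 1.19, adjusted p = 0.0778, edgeR). Leaving out RC/RC mouse RC105 brought Hp to -3.99 and past the threshold (adjusted p = 0.0334, edgeR). The log2 fold changes of Fgb, Fgg, Fga and Cp were -1.55, -1.02, -0.73 and -0.54, with adjusted p between 0.123 and 0.176 (edgeR). With DESeq2, Hp (adjusted p = 0.0238) and Fgb (adjusted p = 0.0392) passed beside Socs3. Without RC/RC mouse RC105 the fibrinogen chains had smaller values, -0.79 for Fgb, -0.58 for Fgg and -0.35 for Fga. In all, 7 of the 8 had an unadjusted p under 0.05 in the same fit, at which 16.4% of all genes were lower. The Hp value rests on RC/RC mice RC139 and RC143, without which its sign turned, to 0.65 (adjusted p = 0.543, edgeR), and without these mice the Socs3 difference of -1.63 no longer passed (adjusted p = 0.155, edgeR).

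RC/RC:Casp1KO mouse Del3_70 was singled out after its values were seen, since its levels of Lcn2, Serpina3n and Socs3 were the highest of its group, and leaving it out must enlarge the differences of these 3 genes from RC/RC. Without it, the mean Lcn2 level of the group was 8.51 ± 4.04 CPM (SD, n = 3) in place of 21.9 ± 27.0 CPM (SD, n = 4). Lcn2 was then lower than in RC/RC by 3.26 ± 0.39 on the log2 scale (adjusted p = 0.00725, edgeR), Serpina3n by 3.15 ± 0.62 (adjusted p = 0.0219, edgeR) and Socs3 by 2.40 ± 0.31 (adjusted p = 0.00751, edgeR). In that fit 4.42% of all genes tested were called lower, and the other 5 genes were not called, with Hp at -3.49 and Fgb at -1.60. Its Casp1 level, 1.05 CPM from 23 reads, was the highest of its group and below that of all WT mice. Over all genes, mouse Del3_70 was the farthest of its group, with a mean correlation of 0.975 with its group mates, against 0.977 to 0.980 for the other 3, and a root mean square log2 distance of 0.418, against 0.335 to 0.406. The 4 RC/RC mice ranged from 0.970 to 0.977 in the same correlation.

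**Figure D3:**
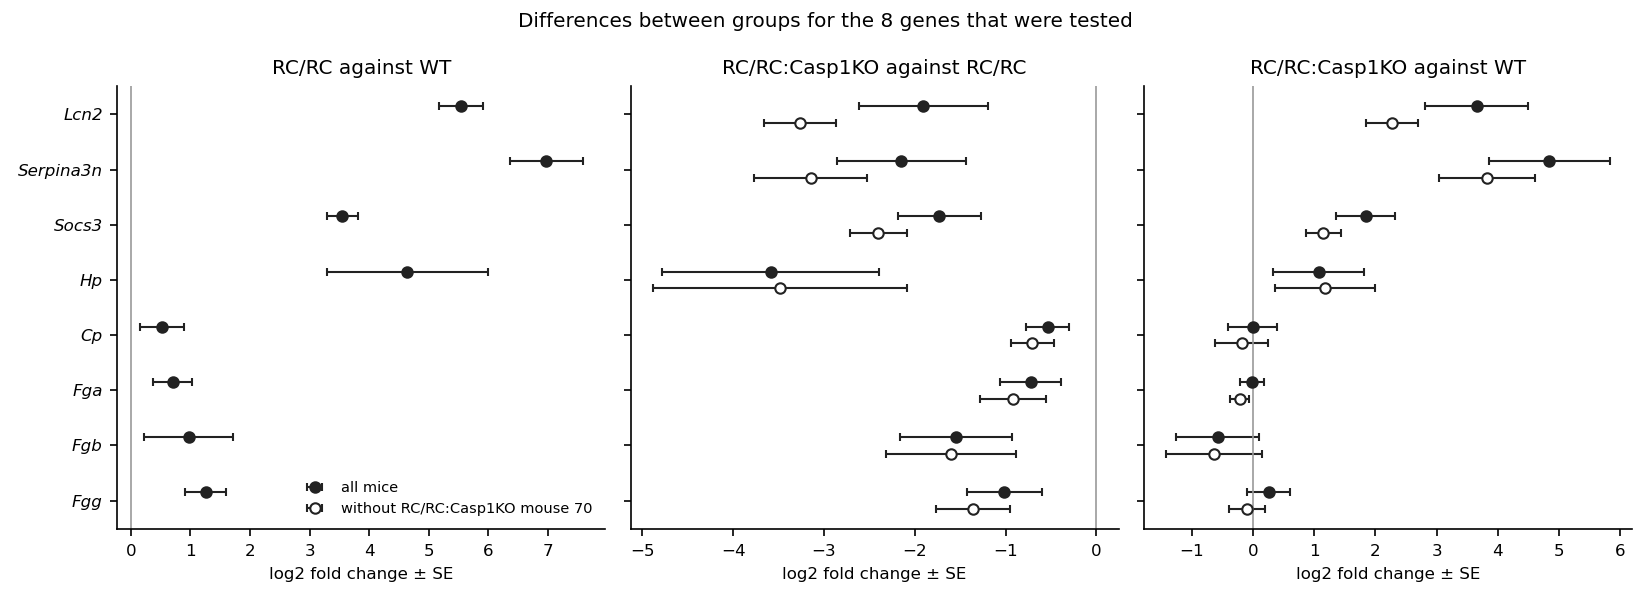
Log2 fold change ± SE (edgeR) of the 8 genes tested in each of the 3 comparisons, with filled points for all mice and open points without RC/RC:Casp1KO mouse Del3_70. All points lie below 0 in RC/RC:Casp1KO against RC/RC, and the open points of Lcn2, Serpina3n and Socs3 lie farther from 0 than the filled ones.

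Compared with WT, the RC/RC:Casp1KO kidneys still had more Serpina3n, by 4.84 ± 0.99 on the log2 scale (adjusted p = 0.0458, edgeR), a call that was lost in 7 of the 8 fits that left out 1 mouse (all but that without Del3_42; 5.72 without B6_4) and with the Serpina3 family summed (2.23, adjusted p = 0.0858, edgeR). Lcn2 (3.65 ± 0.84, adjusted p = 0.0649, edgeR) and Socs3 (1.84 ± 0.48, adjusted p = 0.0923, edgeR) did not pass, though all 4 RC/RC:Casp1KO mice lay above all 4 WT mice for these 3 genes, which held for 7.47% of all genes tested. With DESeq2, Lcn2 and Socs3 passed (adjusted p of 0.00119 and 0.00293). Without mouse Del3_70 the differences were 3.82 for Serpina3n, 2.27 for Lcn2 and 1.15 for Socs3, at unadjusted p of 0.0012, 0.000618 and 0.00354, and none was called with edgeR, where 0.431% of all genes were called higher. The fibrinogen chains and Cp had log2 fold changes between -0.58 and 0.25 with adjusted p of at least 0.638 (edgeR), and the sign of each changed with the mice or the scaling used. Hp did not pass (1.07 ± 0.74, adjusted p = 0.416, edgeR), and its value ranged from 0.70 to 2.08 with 1 mouse left out.

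Over the 12 mice, the 5 genes whose log2(CPM + 1) followed Lcn2 most closely among 14162 genes were Socs3 (Pearson's r = 0.991), Lif (0.991), Cd44 (0.988), Havcr1 (0.986) and Pdgfb (0.986). Lif encodes an IL-6 family cytokine, Cd44 a hyaluronan receptor, Havcr1 the tubular injury protein KIM-1 and Pdgfb a platelet-derived growth factor chain. Serpina3n came 15th (r = 0.979) and Fgg at rank 1393 (r = 0.749). With the group means removed, r was 0.964 for Socs3, 0.952 for Lif and 0.852 for Serpina3n. The genes most like the fibrinogen chains among 14160 genes were others: Ifih1 (0.905), Irgm1 (0.893), Cyp4v3 (0.890), Spp1 (0.885) and Sox4 (0.880), with Cp at rank 83 (r = 0.778) and Lcn2 at rank 717 (r = 0.621). These are descriptions over mice that share group differences and a common scaling, and the order changed with rank correlation, under which 2 of the 5 genes for Lcn2 and 3 of the 5 for fibrinogen were kept.

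The wider programme was described with lists of genes. Of 22 tested other positive acute-phase genes, 11 were higher and none lower in RC/RC than in WT, where 9.76% of all genes tested were called higher and 3.18% lower, with a median log2 fold change of 1.60. Timp1, an inhibitor of matrix proteases, rose by 4.91 ± 0.62, Il1rn, the IL-1 receptor antagonist, by 3.94 ± 0.62, the complement gene C3 by 2.81 ± 0.35 and Serpina3g by 2.77 ± 0.33 (adjusted p of 0.0016, 0.00407, 0.00133 and 0.0012, edgeR). These 4 calls held whichever mouse was left out, with Il1rn at 4.62 without B6_3. Serping1, the C1 inhibitor, rose by 1.89 ± 0.26, while the metallothionein Mt1 differed by -0.06 ± 0.25 (adjusted p = 0.899, edgeR). Against RC/RC, 6 of 22 were lower in RC/RC:Casp1KO (4.41% of all genes tested), among them Serpina3g (-1.66), Serping1 (-1.31) and Mt1 (-0.78). With 1 mouse left out this count ran from 0 (without RC140 or Del3_60) to 11 (without Del3_70), and it was 1 without RC139 or Del3_105 and 2 without Del3_42. Over the 6 lists, 21 genes were called in this comparison, and 5 without RC140 or Del3_105, 7 without RC139, 8 without Del3_60, 9 without Del3_42, 35 without Del3_70, 9 with library size alone and 0 without RC139 and RC143. None of 20 was called against WT with edgeR, where 7 had an unadjusted p under 0.05 (5 higher and 2 lower) and DESeq2 called 3.

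The negative acute-phase genes did not fall as a group in RC/RC: of 8 tested, 3 were higher and none lower, beside 9.76% and 3.18% of all genes tested. Serpina6, the corticosteroid carrier of plasma, rose by 6.07 ± 1.41 and Rbp4, the plasma retinol carrier, by 4.42 ± 1.16 on the log2 scale (adjusted p of 0.0214 and 0.0351, edgeR). The Serpina6 call was lost without B6_2, B6_4 or B6_6, and its value was 7.49 without B6_3 and 4.87 without RC139. The Rbp4 call was lost without any 1 of the 4 WT mice, and its value was 2.24 without RC139. Rbp4 had 1.55, 40.2, 2.37 and 4.17 CPM in RC/RC mice RC105, RC139, RC140 and RC143, so that the highest level was again in the mouse with the most adipocyte marker reads. Ttr, transthyretin, had a log2 fold change of -0.90 ± 0.39 in RC/RC against WT (adjusted p = 0.164, edgeR) and was lower in RC/RC:Casp1KO than in WT by 1.46 ± 0.26 (adjusted p = 0.0279, edgeR), the only gene of the list called in that comparison, where 0.893% of all genes tested were called lower. The Ttr call was lost without B6_2, B6_6, Del3_60, Del3_70 or Del3_105, at adjusted p up to 0.0938 (edgeR). Cyp2e1, a cytochrome P450, differed by 0.0038 ± 1.06 in RC/RC against WT.

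Among the signals upstream, 6 of 26 tested genes of the IL-6 family and STAT3 list were higher and none lower in RC/RC, beside 9.76% and 3.18% of all genes tested. The ligand gene Lif rose by 3.79 ± 0.28, from between 0.383 and 0.515 CPM in the WT mice to 7.68, 7.99, 5.67 and 4.34 CPM in RC/RC mice RC105, RC139, RC140 and RC143 (adjusted p = 0.000138, edgeR). It was 0.831, 1.54, 5.63 and 1.90 CPM in RC/RC:Casp1KO mice Del3_42, Del3_60, Del3_70 and Del3_105, with mouse Del3_70 again the highest. The receptor gene Osmr (1.63 ± 0.23), the co-factor Bcl3 (1.74 ± 0.21) and the transcription factor Junb (1.55 ± 0.17) also rose, whereas Il6st, the shared receptor chain gp130, and the kinase Jak1 did not pass the test (0.31 ± 0.14 and 0.04 ± 0.10). Il6 itself had at most 7 reads in any mouse. Against RC/RC, 1 of 26 genes, Junb (-1.06), was lower in RC/RC:Casp1KO and 1, Pias3 (0.35), was higher, where 4.41% and 7.23% of all genes tested were. With 1 mouse left out from 0 (without RC139, RC140, Del3_42 or Del3_105) to 4 (without Del3_70) of the list were lower, with 3 without RC105 or RC143, and DESeq2 called 6 lower. The Junb call was lost without RC139, RC140, Del3_42 or Del3_105 and the Pias3 call without any 1 of the 8 mice (edgeR).

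Of 14 genes of the IL-1, TNF and NF-kB list, 7 were higher and none lower in RC/RC than in WT, beside 9.76% and 3.18% of all genes tested. Il1b, a substrate of caspase-1 at the protein level, rose by 1.51 ± 0.32 (adjusted p = 0.0141, edgeR), and its transcript differed by -0.06 ± 0.40 between RC/RC:Casp1KO and RC/RC (adjusted p = 0.935, edgeR). The subunit gene Relb rose by 1.29 ± 0.14, Irak3, an inhibitor of signalling by IL-1 receptors, by 1.28 ± 0.31 and the receptor gene Il1r1 by 1.02 ± 0.17, and of these only the Irak3 call was lost with 1 mouse left out (B6_6, RC139 or RC140). The abundant Nfkb1 rose by 0.56 ± 0.11, and Tnfrsf1a did not pass (0.58 ± 0.18, adjusted p = 0.0637, edgeR). Of 15 tested in RC/RC:Casp1KO against RC/RC, 3 were lower (4.41% of all genes tested), Tnfrsf1a among them (-0.67), and with 1 mouse left out from 0 (without RC139, RC140, Del3_42, Del3_60 or Del3_105) to 7 (without Del3_70).

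The partners of fibrinogen went both ways in RC/RC, with 6 of 21 tested genes higher and 2 lower, beside 9.76% and 3.18% of all genes tested. With 1 mouse left out the lower count ran from 1 (without B6_6, RC105 or RC139) to 4 (without RC143). F13a1, the subunit of factor XIII that cross-links fibrin, rose by 3.15 ± 0.61 (adjusted p = 0.00979, edgeR), and by 3.82 without B6_4. F2, prothrombin, fell by 2.24 ± 0.56 and Serpinc1, antithrombin, by 1.71 ± 0.29 (adjusted p of 0.0294 and 0.00558, edgeR), and the F2 call was lost without B6_4, B6_6, RC105 or RC139. The abundant Plau (0.32 ± 0.26) and Serpinf2 (-0.65 ± 0.77) did not pass. Of the 21 genes tested in RC/RC:Casp1KO against RC/RC, 5 were lower (4.41% of all genes tested) and none was higher (edgeR), and with 1 mouse left out from 1 (without Del3_105) to 6 (without Del3_70) were lower.

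Receptors and partners of the acute-phase proteins had 4 of 16 tested genes higher and 2, Cubn and Tfrc, lower in RC/RC, beside 9.76% and 3.18% of all genes tested. With 1 mouse left out the lower count ran from 0 (without B6_6, RC139 or RC140) to 3 (without B6_2), and was 1 without B6_3 or B6_4. Mmp9, the protease that lipocalin-2 binds, rose by 1.67 ± 0.31, Tlr2 by 1.43 ± 0.18 and Tlr4 by 0.91 ± 0.19 (adjusted p of 0.00842, 0.00167 and 0.0133, edgeR). Cubn, the proximal tubule receptor cubilin that takes up filtered proteins, fell by 1.08 ± 0.27 in RC/RC (adjusted p = 0.0319, edgeR), a call lost without B6_4, B6_6, RC139 or RC140. It was higher in RC/RC:Casp1KO than in RC/RC by 1.34 ± 0.25 (adjusted p = 0.0146, edgeR), a call kept whichever mouse was left out. The ferritin genes Fth1 and Ftl1, the most abundant of the list, had log2 fold changes of -0.09 and -0.12 in RC/RC against WT and did not pass. Of 17 tested in RC/RC:Casp1KO against RC/RC, 3 were higher and 1, Mmp9, was lower (-1.08), beside 7.23% and 4.41% of all genes tested. The Mmp9 call was kept only without RC105 or Del3_70.

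The summed levels of macrophage and fibroblast markers were high in the mice in which Lcn2, Serpina3n and Socs3 were high. Of 11 macrophage markers tested, 9 were higher in RC/RC than in WT (9.76% of all genes tested), and their summed level was between 156.6 and 202.1 CPM in the WT mice, 578.9, 541.1, 497.3 and 418.9 CPM in RC/RC mice RC105, RC139, RC140 and RC143, and 212.3, 279.7, 489.8 and 263.5 CPM in RC/RC:Casp1KO mice Del3_42, Del3_60, Del3_70 and Del3_105. Csf1r was the most abundant, at a mean of 70.2 CPM in the WT mice, 100.2 CPM in the RC/RC mice and 110.6 CPM in the RC/RC:Casp1KO mice, so that it was not lower in the last group. It was not called in RC/RC against WT (0.50 ± 0.17, adjusted p = 0.0828, edgeR) or in RC/RC:Casp1KO against RC/RC (0.15 ± 0.19, adjusted p = 0.629, edgeR). Of the 11 macrophage markers, 2 were called lower in RC/RC:Casp1KO than in RC/RC (4.41% of all genes tested). The count was 8 without Del3_70 (4.42% of all genes tested) but 0 without any other 1 mouse. All 7 fibroblast markers, of which Col3a1 was the most abundant, were higher in RC/RC than in WT (5 without B6_6 or RC139), with a summed level between 220.1 and 309.5 CPM in WT, 1184, 1885, 1071 and 820.8 CPM in the RC/RC mice and 309.3, 323.2, 713.6 and 463.9 CPM in the RC/RC:Casp1KO mice, in the same order. In RC/RC:Casp1KO against RC/RC, 5 of the 7 were called lower (4.41% of all genes tested), with a median log2 fold change of -1.52 over the 7. The count was 1 without RC139, Del3_42 or Del3_60 and 2 without RC140 or Del3_105. RC/RC:Casp1KO mouse Del3_70 was the highest of its group in both sums, as it was in Lcn2. The part of these cells in the result was not tested, and in whole kidney a change in the number of cells of a type and a change in the RNA per cell cannot be told apart.

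**Figure D4:**
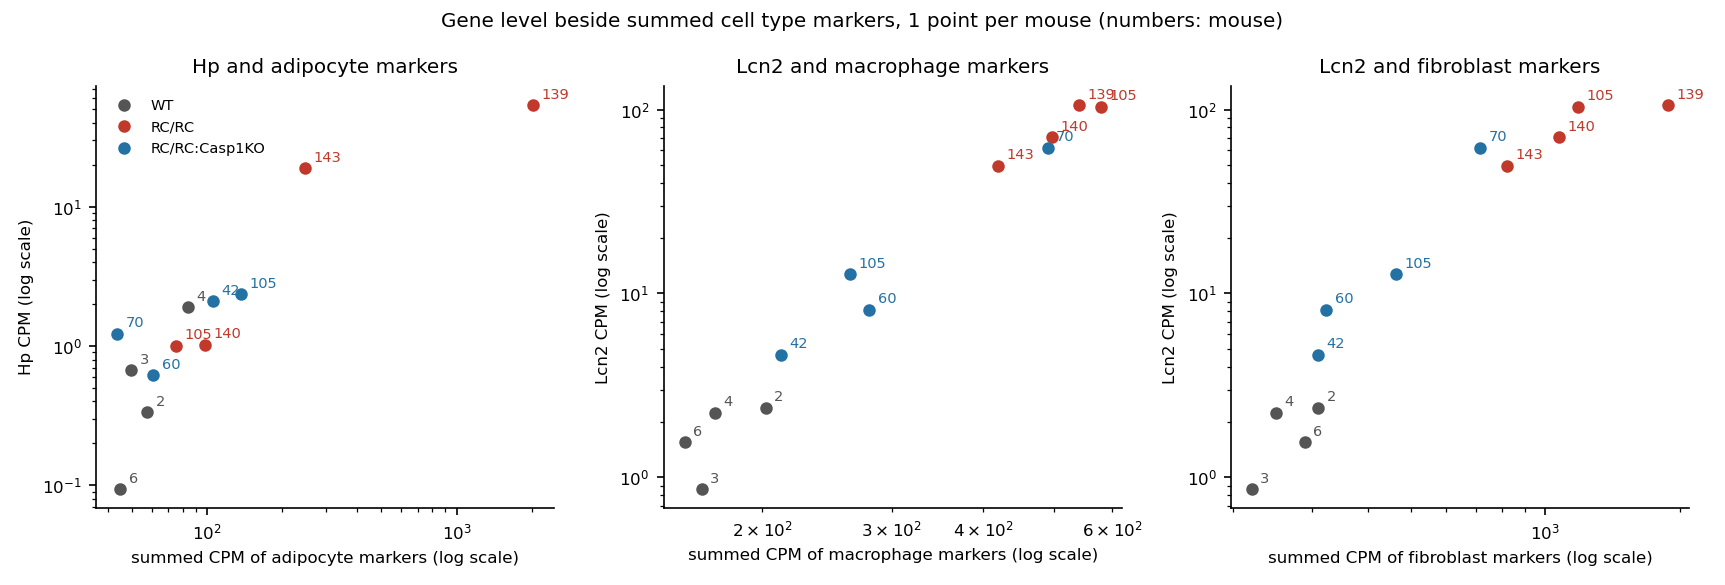
Level of Hp or Lcn2 (CPM, log scale) against the summed CPM (log scale) of adipocyte, macrophage or fibroblast markers, with 1 numbered point per mouse. RC/RC mice RC139 and RC143 stand out in the Hp panel, and RC/RC:Casp1KO mouse Del3_70 lies near the RC/RC mice in both Lcn2 panels.

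Neutrophils and hepatocytes also make several of the 10 proteins. Ly6g, Mpo, Elane, Camp and Ngp, defining markers of neutrophils, had 3 reads or fewer in every mouse. The summed level of the 12 neutrophil markers was between 1.915 and 4.84 CPM in the WT mice and between 4.92 and 7.985 CPM in the RC/RC mice. It was 2.71, 3.27, 8.04 and 3.46 CPM in RC/RC:Casp1KO mice Del3_42, Del3_60, Del3_70 and Del3_105. Every RC/RC mouse thus lay above every WT mouse, but narrowly, with 4.92 CPM in RC105 against 4.84 CPM in B6_4. Of all single genes tested, 12.7% showed such a separation. Mouse Del3_70 was the highest of its group, as in Lcn2. Csf3r was the most abundant, and the part of these cells in the result was not tested. None of the 4 that were tested was called in RC/RC against WT with edgeR. Of them, 1 had an unadjusted p under 0.05 in that fit, and DESeq2 called 1. Their log2 fold changes went different ways, with 1.29 for Csf3r, 0.53 for S100a8, 0.015 for S100a9 and -0.42 for Ltf. Of 12 hepatocyte markers, Ahsg, Cps1 and Tat had 3 reads or fewer in every mouse, and no marker was at 0 in all of them. Their summed level was 418.7 ± 89.7 CPM in WT, 230.9 ± 75.1 CPM in RC/RC and 368.6 ± 17.8 CPM in RC/RC:Casp1KO (SD, n = 4 each), and Apob, which was the most abundant, held most of it. Of the 7 that were tested, F2 alone was called lower in RC/RC against WT (3.18% of all genes tested). None was called in RC/RC:Casp1KO against RC/RC with edgeR, where 2 had an unadjusted p under 0.05 and DESeq2 called 1. Of 10 proximal tubule markers 2 were lower and none higher in RC/RC, beside 3.18% and 9.76% of all genes tested. Likewise lower were 3 of 12 markers of the distal nephron and collecting duct and 1 of 5 of podocytes, with none higher. With 1 mouse left out, the proximal tubule count was 0 without B6_6 or RC140, 1 without B6_4 or RC139 and otherwise up to 3, the distal count was 5 without RC105 and otherwise 3, and the podocyte count was 0 in 6 of the 8 fits, all but those without B6_4 (2) and RC139 (1). In RC/RC:Casp1KO against RC/RC, 2 of the 10 proximal tubule markers, Cubn and Lrp2 (1.52), were higher whichever mouse was left out, and 1 of the 12 distal markers, Slc12a3 (1.44), was higher, a call kept only without RC105 or Del3_42, beside 7.23% of all genes tested.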

How the data were processed

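Kidney RNA of 12 mice was sequenced by Novogene for the authors. The submitters' processing notes name CASAVA 1.8, STAR and mm10; the counting tool, the annotation and the use of strand are not given in the sources used here. The authors deposited 1 table of raw read counts per gene, gene lengths and coordinates. Its FPKM values and the authors' own fold changes and p-values were not used. Columns name the group and a mouse number, not the sex or replicate number, so mice were analyzed by group. Columns of unknown group numbered 0.

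Each comparison was a fit of 8 mice with edgeR 4.0.16 (R 4.3.3): quasi-likelihood test, TMM factors, filterByExpr and Benjamini-Hochberg adjustment over all genes tested, with calls at an adjusted p under 0.05. Each SE was derived from the fitted log2 change and its F statistic. CPM used the TMM factors of the 12 libraries, and CPM per kb also the deposited gene length. Likeness was Pearson's r of log2(CPM + 1) over the 12 mice among genes with a mean of 1 CPM or more. Near copies were sought with BLAST 2.17.0 among GENCODE vM39 transcripts. Promoter bases are from RefSeq (GRCm38.p6). Fits were tested on simulated data.

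The members and lists were chosen with earlier results of these data known. Besides the 10 members, the text names Casp1, Pkd1, near copies, and from each list up to 4 called genes with the largest change in RC/RC against WT and the 2 most abundant genes, the most abundant marker of each cell type, and the 5 genes most like Lcn2 and the fibrinogen chains; genes outside this rule were named after their values were seen. Single values of 2 list genes are not reported here. Alternatives were DESeq2 1.42.0, RLE size factors, library size alone, other filters on low counts, 1 fit of all 12 mice, the near copies summed, rank correlation, and leaving out each mouse in turn. Leaving out RC/RC mice RC139 and RC143 together, and coding lengths for the chains, were added after seeing the data. SDs and SEs are over mice, and the floor of 3 reads covers counting error only.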

Additional observations from a re-analysis of the deposited data

Results flagged for a closer look

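Lcn2 was 62.1 CPM in RC/RC:Casp1KO mouse Del3_70, while the other 3 mice of the group had between 4.65 and 12.7 CPM, a gap of 0.86 of the group's range. Saa3 was 0.144 CPM (3 reads) in WT mouse B6_3 and 0 in the other WT mice. Saa3 was 0.664 CPM (14 reads) in RC/RC:Casp1KO mouse Del3_105 and between 0.0770 and 0.136 CPM in the other mice of the group. These were 3 of 29 groups of 4 mice examined for a mouse far from the others, of which chance would pick about 1 in 20. This rate cannot be relied on for Saa3, whose other mice had 0 reads in WT and 2, 2 and 3 reads in RC/RC:Casp1KO. At such counts a gap can come from whole reads near the floor.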

How the results depend on the processing

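Of 355 recomputed values of single members, 305 kept their direction and side of the threshold, 21 lost and 15 gained a call, and 14 changed sign. The causes were not tested. No paired analysis was possible because the columns carry no replicate numbers. Coding lengths from RefSeq were not used, and lengths from GENCODE took their place.

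Genes called in RC/RC against WT numbered 1971, and 3018 with DESeq2, 1050 without RC/RC mice RC139 and RC143, and 1162 to 2440 with 1 mouse left out (1162 without WT mouse B6_6, 1270 without RC/RC mouse RC139). In RC/RC:Casp1KO against RC/RC they numbered 1797, and 3182 with DESeq2, 993 with library size alone and 438 to 2789 with 1 mouse left out. Without RC/RC mice RC139 and RC143 edgeR called 0, where 3334 genes had an unadjusted p under 0.05. Those in RC/RC:Casp1KO against WT numbered 311, and 1390 with DESeq2 and 108 to 547 with 1 mouse left out.

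Members called were 4 in RC/RC against WT, 6 with DESeq2 (Hp and Saa1 added) and 3 to 4 with 1 mouse left out. Against RC/RC, 1 was called in RC/RC:Casp1KO, and 3 with DESeq2, 0 with library size alone, 0 without RC/RC mice RC139 and RC143, and 0 to 3 with 1 mouse left out (0 without RC/RC mouse RC139 or RC140 or RC/RC:Casp1KO mouse Del3_42, Del3_60 or Del3_105). Against WT, 1 was called in RC/RC:Casp1KO, and 3 with DESeq2, 2 with all genes with at least 1 count, 2 in 1 fit of all 12 mice, and 0 to 2 with 1 mouse left out. Of the genes of the 6 lists, 41 were called in RC/RC against WT and 26 without RC/RC mice RC139 and RC143; 21 in RC/RC:Casp1KO against RC/RC, and 42 with DESeq2, 9 with library size alone, 0 without those 2 mice and 5 to 35 with 1 mouse left out; and 2 in RC/RC:Casp1KO against WT, and 18 with DESeq2 and 0 to 4 with 1 mouse left out.

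Signs changed for Hp in RC/RC:Casp1KO against RC/RC without RC/RC mice RC139 and RC143 (0.65). They changed in RC/RC:Casp1KO against WT with library size alone for Cp (0.14) and Fga (0.12), a scaling that moved the median of all genes to 0.142. With 1 mouse left out the fitted log2 fold changes there ranged from -0.27 to 0.31 for Cp, from -0.22 to 0.091 for Fga, from -0.94 to 0.13 for Fgb and from -0.10 to 0.44 for Fgg. By rank correlation, 2 of the 5 genes most like Lcn2 and 3 of the 5 most like the fibrinogen chains were kept. A level of 3 reads or fewer was not told apart from 0.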
